A study of Ursus arctos with 12 samples.

Results

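Calpains are cysteine proteases that calcium activates in the cytosol. Together with their inhibitor calpastatin they form the calpain system, which cuts structural and signalling proteins at a limited number of sites and does not digest them completely. In skeletal muscle, µ-calpain (the large subunit CAPN1) and m-calpain (CAPN2) share a small regulatory subunit (CAPNS1) and are held in check by calpastatin (CAST). Muscle fibres also hold calpain-3 (CAPN3), a form bound to titin whose loss causes a limb-girdle muscular dystrophy. Calpains release myofibrillar proteins from the sarcomere in wasting muscle and take part in remodelling of the cytoskeleton and in repair of the sarcolemma.

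The genes described here are the 10 rows of the deposited count table with the symbols CAPN1, CAPN2, CAPN3, CAPN5, CAPN6, CAPN7, CAPN10, CAPN15, CAPNS1 and CAST, out of 30249 genes in all. They were chosen by name. Each of the 10 passed the filter of at least 30 reads over the libraries, which 17290 genes passed. RNA came from the vastus lateralis, a thigh muscle, of 6 free-ranging brown bears (Ursus arctos) aged 2 to 3 years. Every bear was biopsied in winter, during hibernation in February, and in summer, during the active period in June, which gave 12 libraries. Season thus stands for all that differs between a hibernating and an active bear, and the biopsies of a bear were months apart. Levels are given as CPM (counts per 1e6 reads after TMM scaling between libraries), and the winter to summer difference as a log2 fold change with its standard error (SE). The adjusted p is the edgeR quasi-likelihood p after Benjamini-Hochberg correction over the 17290 genes, from a fit in which the bear was not a term. Each bear gave 1 library per season, so p-values measure the spread between these 6 bears. A gene was called at an adjusted p below 0.05.

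The libraries held 16742406 to 32140160 reads on genes. Muscle fibre markers were abundant in both seasons, the 9 tested markers summing to 120000 to 194900 CPM in summer and 130100 to 168900 in winter. Of these 9 markers, 2 were called higher and 2 lower in winter, so the sum hides changes in both directions. The winter library of bear 1509 stood apart on the second principal component, at −98.6 against 6.35 to 23.1 for the other winter libraries. With 16742406 reads it also held the fewest of the 12 libraries, just below that of bear 1511 in winter (17198625). The winter library of bear 1509 was the lowest of winter for 5 of the 10 calpain system genes, namely CAPN1, CAPN2, CAPN3, CAPN10 and CAPN15. The values without bear 1509 are therefore given for genes and ratios that it moved by over 1.5 times. Among markers of other cells, 5 of 8 fibroblast markers were lower in winter and 0 higher, with a summed level of 3304 to 8218 CPM in summer and 269.2 to 1571 in winter (in edgeR, 8 were lower and 0 higher at an unadjusted p below 0.05, and 7 were lower and 0 higher with bears blocked). The fall of this sum came largely from the collagens COL3A1 (mean 3169 CPM in summer, 175.7 in winter) and COL1A1 (1437 and 59.7). PDGFRA, DCN and FBLN1 were not called. Of 8 endothelial markers 6 were lower and 1 was higher (638.3 to 965.9 CPM in summer, 427.8 to 496.3 in winter). Of 4 satellite cell markers 3 were lower. Of 7 leukocyte markers 3 were lower and of 7 smooth muscle and pericyte markers 2, or 4 and 4 with bears blocked. Of all genes, 39.5% were called and 19.9% were called lower (21.2% with bears blocked). The called markers, 42.9% of the leukocyte and 28.6% of the smooth muscle and pericyte markers, were all lower and 0 higher. The median log2 fold changes of these sets were −0.563 and −0.405. Of 5 adipocyte markers 1 was higher and 1 lower (0 and 1 with bears blocked), and of 5 Schwann cell and nerve markers 1 was lower. Of 2 skin markers tested 1 was higher, and the 1 erythroid marker tested was not called. None of the markers tested was without reads in every library. In RNA from whole biopsies, fewer cells of a type and less RNA per cell cannot be told apart.

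In hibernation CAPN6 fell to about the 0.50-fold level and CAPN1 to 0.78-fold, while CAPN7 rose 1.36-fold. The other 7 genes, among them CAPN2, CAPN3, the small subunit CAPNS1 and the inhibitor CAST, were not called. Thus 3 of 10 genes were called, 1 higher and 2 lower, which is 30% against 39.5% of all genes tested. In winter 19.6% of all genes were called higher and 19.9% lower. The median log2 fold change was −0.18 over the 10 genes and −0.0021 over all genes. Under stricter limits (adjusted p under 0.01, with the fold over 1.3 or under 0.77) CAPN6 and CAPN7 were called, 2 of 10 genes against 24.0% of all genes, and 12% of all genes were lower by these limits. With bears blocked, the same 3 genes were called, against 40.8% of all genes, 19.6% higher and 21.2% lower. The seasons did not overlap in CPM for CAPN6 and CAPN7, compared with 17.3% of all genes, of which 9.12% were higher and 8.21% lower in winter. The 6 bears moved in 1 direction for 4 of 10 genes, CAPN1, CAPN3, CAPN6 and CAPN7, against 37.4% of all genes.

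**Figure D1:**
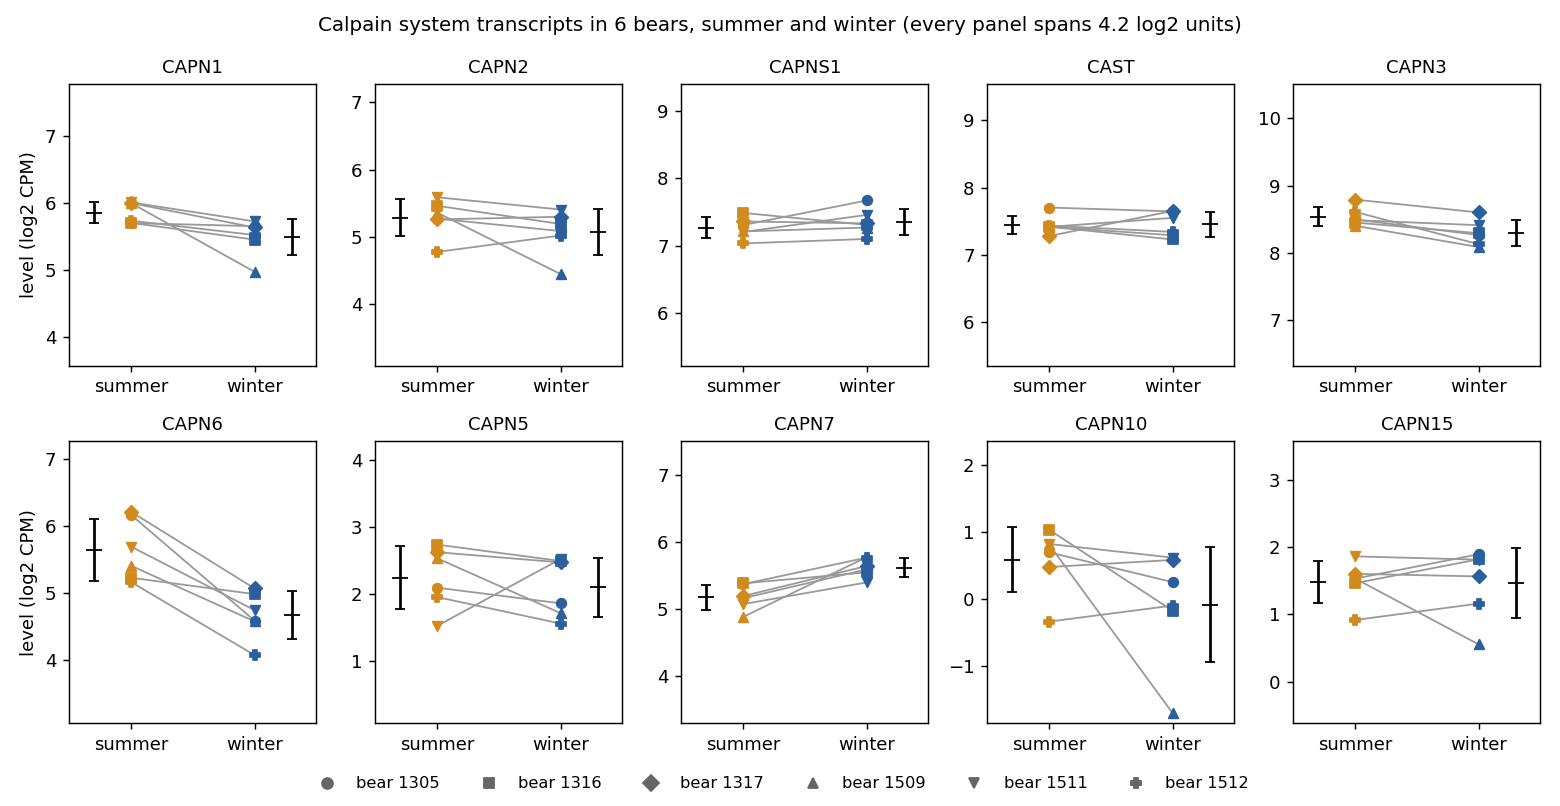
Level of the 10 calpain system genes as log2 CPM in summer (orange) and winter (blue), with a symbol for each of the 6 bears, grey lines joining the libraries of a bear, and black bars for the mean and SD of each season. CAPN6 lies lower and CAPN7 higher in winter without overlap between seasons, and the winter library of bear 1509 lies lowest for CAPN1, CAPN2, CAPN3, CAPN10 and CAPN15.

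The ubiquitous calpains were examined first. CAPN1, the catalytic subunit of µ-calpain, was at 51.99 CPM in the lowest summer library, 58.61 at the median and 64.33 in the highest. In winter it was at 31.4, 47.79 and 52.89 CPM. The ranges overlapped only slightly, since 1 winter library (52.89 CPM, bear 1511) lay above the 2 lowest of summer (51.99 and 52.09), and each bear had less CAPN1 in winter than in summer. This gave a log2 fold change of −0.35 (SE 0.12, adjusted p = 0.0365). Single bears differed widely, with a change of −1.02 in bear 1509 and of −0.36 to −0.05 in the other bears. Without bear 1509 the log2 fold change was −0.23 and the call was lost (adjusted p = 0.114). It was also lost without bear 1316 (0.0624), 1317 (0.0769), 1511 (0.0539) or 1512 (0.064), and kept without bear 1305 (0.0387). With all 6 bears it held under each of the other tools, scalings and filters tried, with adjusted p values from 0.016 to 0.045.

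CAPN2, the catalytic subunit of m-calpain, was at 27.27, 39.76 and 48.01 CPM in the lowest, median and highest summer library and at 21.69, 35.12 and 42.3 CPM in winter. The seasons overlapped over most of their range, and 4 of 6 bears were lower in winter. The log2 fold change of −0.20 (SE 0.16, adjusted p = 0.331) was within the spread between bears, and the 95% interval of the fold ran from 0.685 to 1.1. Without bear 1509 the log2 fold change was −0.08.

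CAPNS1 encodes the small subunit that CAPN1 and CAPN2 need for stability and activity. Its level was 130.8, 152.9 and 179.2 CPM in the lowest, median and highest summer library and 136.9, 159.5 and 203.6 CPM in winter, where it was higher in 4 of 6 bears. With a log2 fold change of 0.09 (SE 0.11, adjusted p = 0.518) it was not called, and the 95% interval of the fold ran from 0.908 to 1.25.

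CAST, the inhibitor of CAPN1 and CAPN2, was at 155.2, 170.9 and 208.3 CPM in the lowest, median and highest summer library and at 149.8, 174.6 and 201.3 CPM in winter. The seasons overlapped over nearly their whole range. The log2 fold change was 0.01 (SE 0.11, adjusted p = 0.942), with 2 of 6 bears higher, and its sign changed with the scaling and with the bears used. Without bear 1509 it was 0.047. The 95% interval of the fold, 0.862 to 1.18, bounds a change of the total transcript. RefSeq lists 26 CAST transcripts in a later bear assembly, UrsArc2.0, and counts per gene cannot separate them. Between bears CAST had an SD of 0.14 log2 CPM among the summer libraries and of 0.19 among the winter libraries, below the median SD of all genes tested (0.322 and 0.351).

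**Figure D2:**
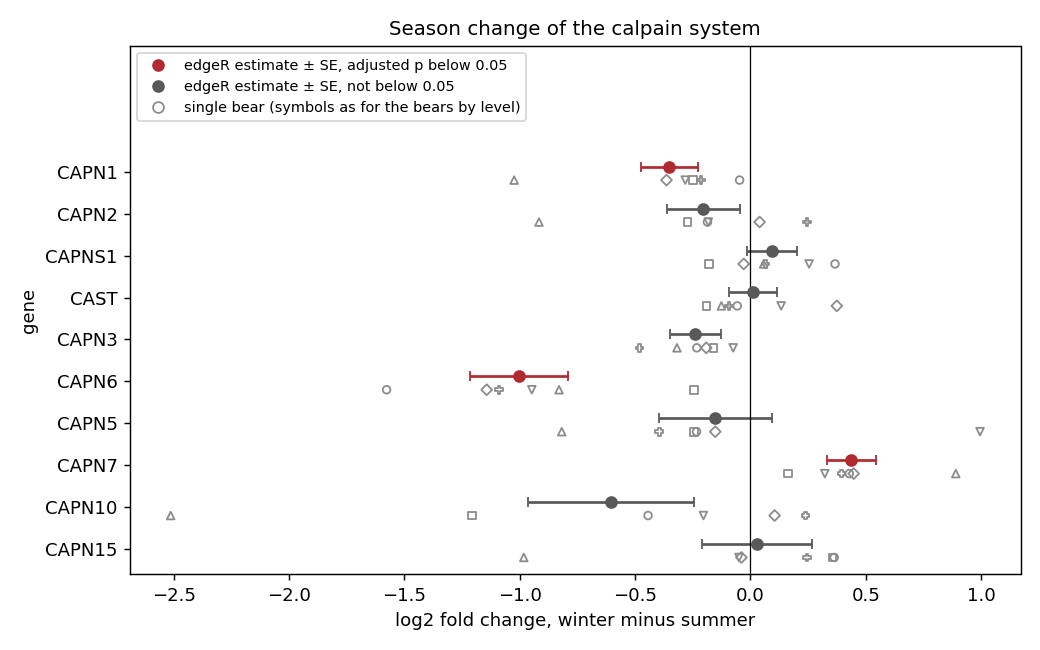
Winter minus summer log2 fold change of the 10 genes with its standard error (filled circles, red where the adjusted p was below 0.05) and the change in each of the 6 bears (open symbols). CAPN6 and CAPN1 lie below 0 and CAPN7 above 0 in 6 of 6 bears, while CAST and CAPNS1 lie around 0.

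CAPN3, the titin-bound calpain of muscle fibres, collected 4922 to 10212 reads per library, more than any other gene of the system, although reads are not corrected for transcript length. It was at 338.7, 360.0 and 443.5 CPM in the lowest, median and highest summer library and at 271.6, 310.5 and 388.4 CPM in winter. The level was lower in winter in 6 of 6 bears, by −0.48 to −0.07 on the log2 scale, but the ranges of the seasons overlapped. The log2 fold change of −0.24 (SE 0.11) had an unadjusted p of 0.0472 and an adjusted p of 0.0982 in edgeR and was not called. Scaled by library totals alone, a scaling that moved the median of all genes to −0.0813, it was −0.33 with an adjusted p of 0.0425. Over all 14 alternatives the adjusted p ran from 0.0425 to 0.257.

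CAPN6 showed the largest change among the called genes of the system. This calpain lacks the active-site cysteine, has no protease activity and binds microtubules, and it is known from embryonic muscle and placenta. It was at 35.76, 46.96 and 73.95 CPM in the lowest, median and highest summer library and at 16.77, 25.34 and 33.45 CPM in winter. The highest winter library (33.45 CPM, bear 1317) lay below the lowest summer library (35.76 CPM, bear 1512). CAPN6 thus fell by 1.0 on the log2 scale (SE 0.21, adjusted p = 0.00215) in 6 of 6 bears, the change lying between −1.58 (bear 1305) and −0.24 (bear 1316). It was called in 14 of 14 alternatives, and whichever bear was left out it stayed between −1.15 and −0.88 with an adjusted p of at most 0.0134. The summer level varied more between bears (SD 0.46 log2 CPM) than that of CAPN3 (0.14) or CAST (0.14). Most fibroblast, endothelial and satellite cell markers were called lower in winter as well, with the values given above. Only 3 of 7 leukocyte markers and 2 of 7 smooth muscle and pericyte markers were called lower. Their part in the change of CAPN6 was not tested.

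CAPN5, which has a C2 domain in place of the calcium-binding EF hands of CAPN1 and CAPN2, had 58 to 140 reads per library. It was at 2.793, 4.949 and 6.583 CPM in the lowest, median and highest summer library and at 2.865, 4.507 and 5.656 CPM in winter. The log2 fold change of −0.15 (SE 0.24, adjusted p = 0.649) was within the spread between bears. It rested on single bears, being −0.01 without bear 1509 and −0.35 without bear 1511. Bear 1511 went against the other bears, with a change of 0.9955 on the log2 scale, while these lay between −0.82 and −0.15. The 95% interval of the fold was 0.627 to 1.29.

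CAPN7, a calpain without EF hands that binds components of the ESCRT membrane-sorting machinery, was the only gene of the system called higher in winter. It was at 29.37, 36.07 and 41.59 CPM in the lowest, median and highest summer library and at 42.0, 48.91 and 54.52 CPM in winter. Each winter library lay above each summer library, if only narrowly (42.0 CPM in bear 1511 against 41.59 CPM in bear 1316). CAPN7 rose by 0.44 on the log2 scale (SE 0.11, adjusted p = 0.00478) in 6 of 6 bears, the smallest change being 0.16. The largest change, 0.89, was that of bear 1509. CAPN7 was called in 14 of 14 alternatives, at a log2 fold change of 0.36 to 0.50 and an adjusted p of at most 0.0228.

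The remaining calpains were close to the limit of detection. CAPN10, an atypical calpain known as a candidate gene of type 2 diabetes, had 4 to 42 reads per library. Its level was 0.704, 1.599 and 1.96 CPM in the lowest, median and highest summer library and 0.221, 0.974 and 1.44 CPM in winter. CAPN10 was lower in 4 of 6 bears and not called (log2 fold change −0.60, SE 0.36, adjusted p = 0.199). The lowest value, from 4 reads, was that of bear 1509, without which the log2 fold change was −0.36. CAPN15, a calpain with zinc fingers, had 25 to 89 reads and was at 1.8, 2.808 and 3.552 CPM in the lowest, median and highest summer library and at 1.38, 3.151 and 3.633 CPM in winter. With 3 bears higher and 3 lower, its log2 fold change of 0.03 (SE 0.24, adjusted p = 0.937) had no stable sign, and without bear 1509 it was 0.18. At these depths the 95% intervals of the fold were wide, from 0.385 to 1.12 for CAPN10 and from 0.716 to 1.45 for CAPN15.

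**Figure D3:**
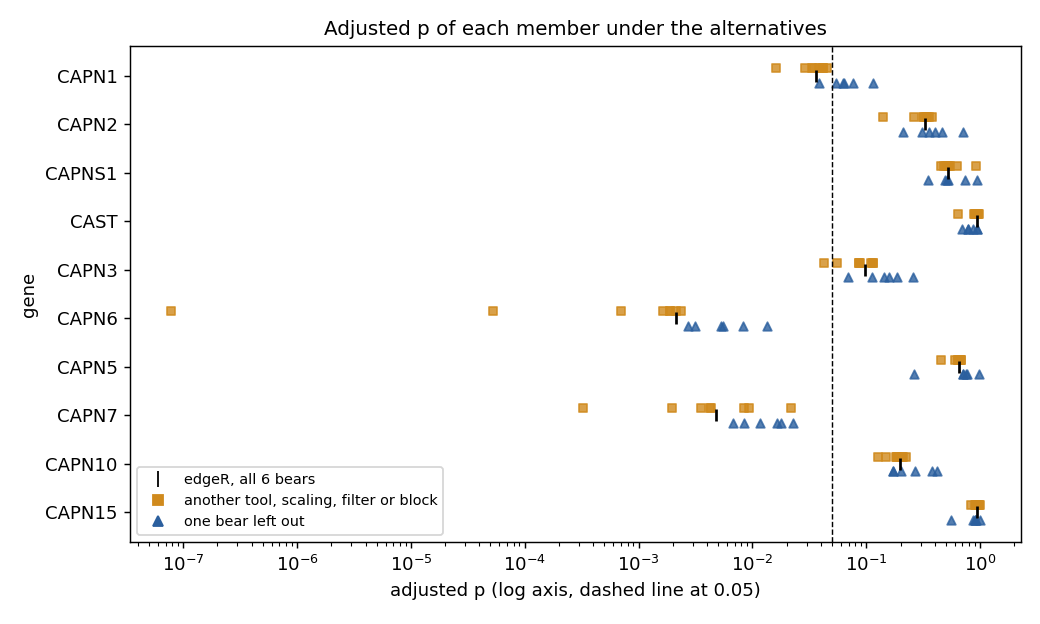
Adjusted p of each of the 10 genes (log axis, dashed line at 0.05) in edgeR with all bears (black bar), with another tool, scaling, filter or replicate block (orange squares), and with 1 bear left out (blue triangles). CAPN6 and CAPN7 lie below 0.05 throughout, whereas the values of CAPN1 with 1 bear left out lie between 0.0387 and 0.114.

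Ratios of reads among the inhibitor, subunits and proteases were then compared inside each library, where no scaling between libraries is needed. The 6 pairs of genes were chosen, like the gene lists, with earlier results of these data known. For each pair the ratio of reads was compared between the winter and the summer library of each bear, with an exact two-sided paired permutation test. Ratios to CAPN1 contain the fall of CAPN1 given above and are not separate from it. With 6 bears this test cannot give a p below 0.03125. Reads are not corrected for length, so the change of a ratio can be read but not its level.

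The ratio of the small subunit CAPNS1 to CAPN1 was 2.29, 2.51 and 3.44 in the lowest, median and highest summer library and 2.98, 3.46 and 4.9 in winter. It was higher in winter in 6 of 6 bears, by 0.45 ± 0.35 on the log2 scale (SD, n = 6 bears, exact paired permutation p = 0.03125, adjusted over the 6 ratios 0.125). Without bear 1509, which had the largest change (1.08), the mean was 0.33. The ratio of CAST to CAPN1 was 2.43, 2.96 and 4.01 in summer and 3.42, 3.76 and 4.98 in winter. It was higher in 5 of 6 bears, by 0.37 ± 0.38 (SD, n = 6 bears, exact paired permutation p = 0.0625, adjusted 0.125), and the lowest mean with 1 bear left out was 0.265, without bear 1509.

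The ratio of CAST to CAPN3 was 0.35, 0.482 and 0.577 in the lowest, median and highest summer library and 0.478, 0.563 and 0.651 in winter. It was higher in 5 of 6 bears, by 0.25 ± 0.20 (SD, n = 6 bears, exact paired permutation p = 0.0625, adjusted 0.125). CAST is described above as the inhibitor of CAPN1 and CAPN2, so this ratio is not read as one of inhibitor to target. Tested without pairing, the exact permutation p was 0.0238 for CAST to CAPN1 and 0.0455 for CAST to CAPN3. For the other 3 ratios the test gave p-values of 0.219 or more. That of CAST to CAPN2 changed by 0.22 ± 0.37 (n = 6 bears, exact p = 0.219), that of CAPN2 to CAPN1 by 0.15 ± 0.24 (n = 6 bears, exact p = 0.25), and that of CAPN3 to CAPN1 by 0.12 ± 0.35 (n = 6 bears, exact p = 0.5). Without bear 1509 the change of CAST to CAPN2 was 0.105 and that of CAPN3 to CAPN1 was 0.0038. After adjustment over the 6 ratios the lowest p was 0.125.

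**Figure D4:**
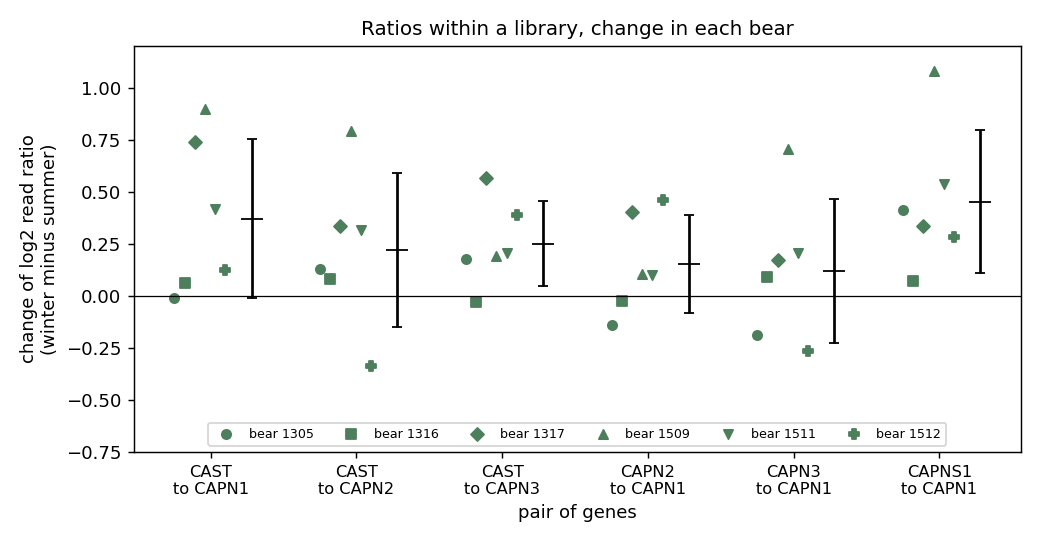
Change of the log2 ratio of reads of 6 gene pairs, winter minus summer, with a symbol for each bear and a black bar for the mean and SD over 6 bears. The ratio of CAPNS1 to CAPN1 lies above 0 in 6 of 6 bears, and bear 1509 has the largest change for CAPNS1, CAST and CAPN3 against CAPN1.

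Of 9 symbols listed as other members of the calpain family, 8 were among the deposited genes and 5 had enough reads to be tested. CAPN13 was called higher and CAPN12 lower. CAPN13 had 0 to 9 reads in a summer library and 11 to 39 in a winter library, with no overlap. Its summer libraries together held fewer than 30 reads, so it passed the filter only with the reads of the winter libraries, where it is high. Its fitted log2 fold change of 2.71 (SE 0.54, adjusted p = 0.00143) is therefore given as a description. CAPN12, known from hair follicle and skin, had 25 to 51 reads in summer and 5 to 11 in winter, again without overlap. Its log2 fold change was −2.13 (SE 0.30, adjusted p = 0.000121), lower in 6 of 6 bears. CAPN12 was called in 14 of 14 alternatives. In the UrsArc2.0 annotation CAPN12 overlaps ACTN4 and another gene, CAPN13 overlaps a gene without a name, and CAPN3, CAPN5 and CAST overlap other genes too. The counting used strand, but the strands of the overlapping genes were not compared, so whether they share reads was not tested. CAPN9, CAPN14 and the small subunit CAPNS2, a close copy of CAPNS1 with which it may share reads, were not called.

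A list of 24 tested genes for muscle proteins that calpains cut or bind, written with earlier results of these data known, was examined next. In winter 4 were higher, 8 lower and 12 not called, which is 50% called against 39.5% of all genes, and the median log2 fold change was −0.18. The largest rises were those of ANKRD2, CMYA5 and TTN. TTN encodes titin, the sarcomeric scaffold that anchors CAPN3, and it was at 16650, 18430 and 22240 CPM in the lowest, median and highest summer library and at 24020, 31770 and 33070 CPM in winter. The seasons did not overlap, and the log2 fold change was 0.65 (SE 0.15, adjusted p = 0.0036) with 6 of 6 bears higher. CMYA5, or myospryn, a costameric protein that binds CAPN3, rose by 0.70 (SE 0.17, adjusted p = 0.00437) in 6 of 6 bears. ANKRD2, a stretch-responsive ankyrin repeat protein of the titin N2A region where CAPN3 also binds, rose by 1.63 (SE 0.50, adjusted p = 0.019) in 5 of 6 bears. Bear 1509 went the other way (−0.88), and without it the log2 fold change was 2.51 (adjusted p = 0.000195). The call was lost without bear 1305 (0.067), 1317 (0.0796) or 1512 (0.0502).

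The largest falls in that list were those of MYBPC2, SPTAN1 and TLN2. MYBPC2, the fast isoform of myosin-binding protein C, was at 2443, 2876 and 3258 CPM in the lowest, median and highest summer library and at 933, 1196 and 1661 CPM in winter, a log2 fold change of −1.24 (SE 0.16, adjusted p = 7.18e-05). SPTAN1, the αII-spectrin whose breakdown products are a classical readout of calpain activity, fell by 0.87 on the log2 scale (SE 0.16, adjusted p = 0.00086). Its 6 summer libraries held 59.86 to 113.5 CPM and its winter libraries 41.03 to 63.02. TLN2, a talin of the costamere, fell by 0.62 (SE 0.16, adjusted p = 0.00667). All of MYBPC2, SPTAN1 and TLN2 were lower in 6 of 6 bears. Desmin (DES), vinculin (VCL), filamin C (FLNC) and dystrophin (DMD), picked after their values were seen, were not called, although DMD (log2 fold change 0.36, adjusted p = 0.0549 in edgeR) was called with bears blocked (0.0242) and in DESeq2 (0.0392). Without bear 1317, 5 of the list were lower.

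Calpains also act when a torn sarcolemma is resealed, and 17 genes of that process were listed in the same way. In winter 10 of them were lower, 1 was higher and 6 were not called, that is 64.7% called against 39.5% of all genes, with a median log2 fold change of −0.52. The gene that rose was CAV3, the caveolin of muscle, at 158 to 267.2 CPM in summer and 229.3 to 452 in winter, with a log2 fold change of 0.81 (SE 0.18, adjusted p = 0.0032) and 6 of 6 bears higher. S100A10, the partner of annexin A2, fell by 1.28 on the log2 scale (SE 0.17, adjusted p = 9.88e-05). ANXA5, annexin A5, fell by 0.94 (SE 0.15, adjusted p = 0.000257), and EHD2, an ATPase of the caveolar neck, fell by 0.93 (SE 0.16, adjusted p = 0.000524). S100A10, ANXA5 and EHD2 were lower in 6 of 6 bears, and their calls held in 14 of 14 alternatives. DYSF, or dysferlin, which calpains cut at sites of injury and which was likewise picked after its values were seen, was higher in 5 of 6 bears but not called (log2 fold change 0.23, SE 0.15, adjusted p = 0.241). Annexins and EHD2 are abundant in endothelial cells and fibroblasts too, whose markers were mostly lower in winter, and the part of these cells was not tested.

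**Figure D5:**
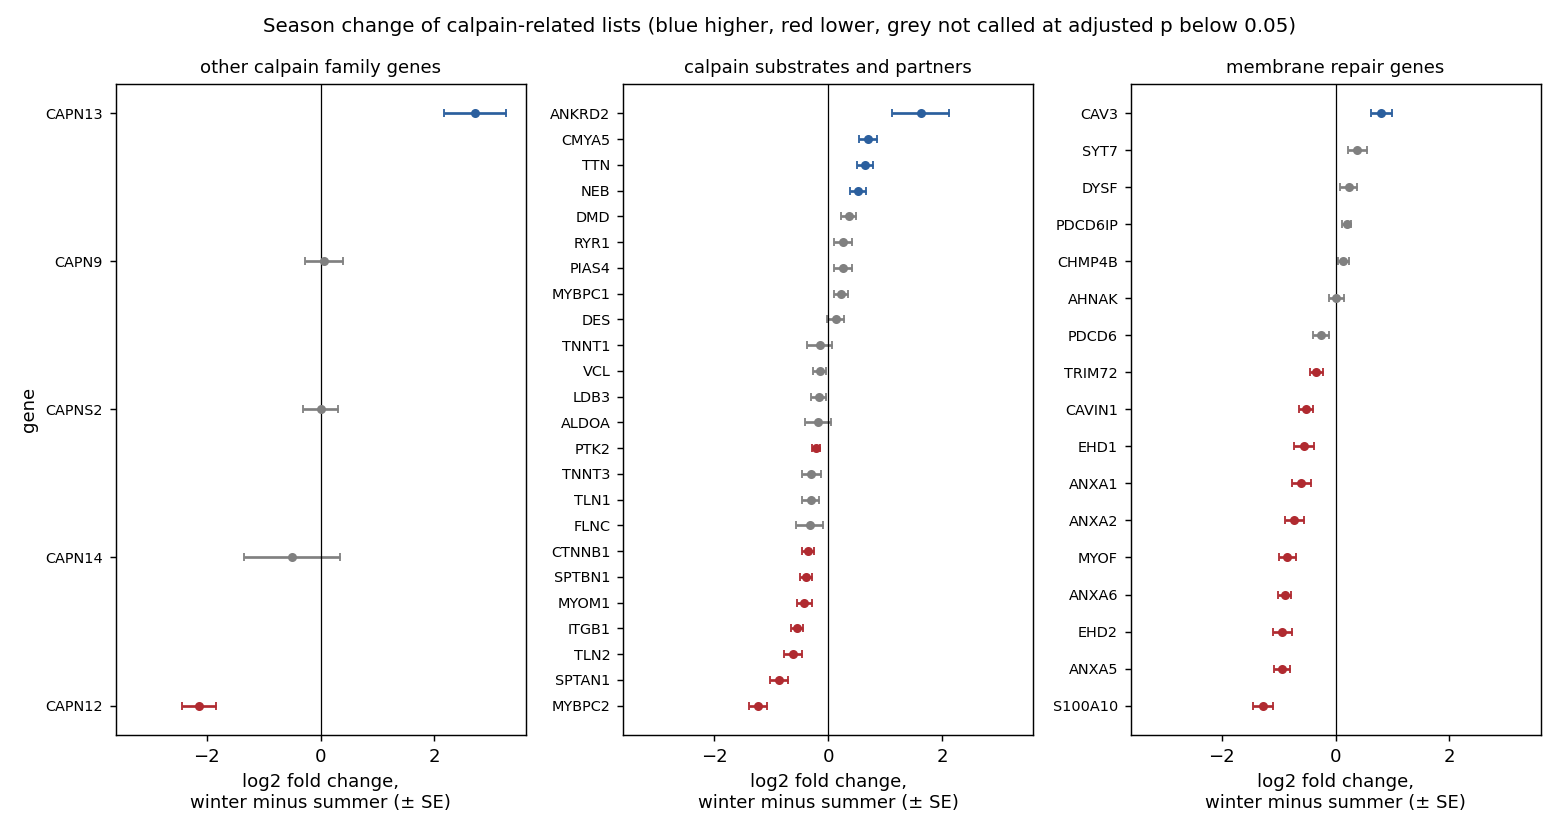
Winter minus summer log2 fold change with its standard error for 5 other calpain family genes, 24 calpain substrates and partners and 17 membrane repair genes (blue higher, red lower, grey not called at an adjusted p below 0.05). In the membrane repair list 10 genes lie in red and 1, CAV3, in blue.

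The genes whose pattern over the 12 libraries was most like that of a calpain gene were sought among 9723 genes with a symbol and at least 30 reads in every library. Likeness was the root mean square difference between log2 CPM values centred on the mean of each gene. For CAPN1 the closest were MPRIP (0.105 log2 units), TXLNA (0.124) and ULK3 (0.126), against a median of 0.411 over all candidates. For CAPN2 they were CNKSR1 (0.116), SBF1 (0.119) and PRR14 (0.12), and for CAPN3 they were XPNPEP1 (0.113), SSRP1 (0.116) and MAML1 (0.12). For CAST they were KIAA1191 (0.104), VAPB (0.122) and DNAJC21 (0.129), against a median of 0.35. These are descriptions of 12 libraries that share season and depth, and none of the genes named is a calpain.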

How the data were processed

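Muscle RNA of 6 bears in winter and summer was analysed. Per the labels and the methods of the study, the authors built stranded poly-A libraries, read 50 bases from 1 end of each fragment, mapped these to assembly ASM358476v1 with TopHat2 2.1.1, discarded alignments with over 3 mismatches and counted reads per gene and strand with featureCounts 1.6.2. The deposited counts are whole numbers, neither normalized nor filtered. The assignment of libraries to the 2 sequencing lanes was not given in the sources used here, so a lane effect was not tested.

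The study's filter, at least 30 reads summed over the 12 libraries, was kept. Counts were scaled by TMM and fitted with glmQLFit and glmQLFTest (edgeR 4.0.16, R 4.3.3) with season as the only term. The SE is the log2 fold change divided by the root of F. The study used DESeq2, tried here (version 1.42.0) with and without bears blocked. Further alternatives were a replicate block by bear in edgeR, RLE factors, library totals, no filter, filterByExpr, limma voom (limma 3.58.1), stricter limits and each bear left out, with the genes of the full set kept. Ratios had 0.5 reads added. Each bear gave both its samples, which pairs them: the correlation of their deviations from season means was 0.0903 to 0.344 within a bear with a median of −0.0634 between bears. The lowest chi-square per gene between libraries of a season was 39, above sampling noise.

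On simulated data, with counts for 17290 genes drawn for winter against summer in 6 bears, the share that edgeR called was 60% for genes given a 2-fold change and 96% for a 4-fold change, with 9 other calls. Only 200 genes were changed there, and no effect shared by both libraries of a bear was kept, whereas 39.5% of genes were called in the data. These shares are therefore not the sensitivity in the bear data. Genes were named by rule: the 10 members, the 3 largest rises and falls among called genes of each list, and the 3 genes most like CAPN1, CAPN2, CAPN3 or CAST. Outside the rule, DES, VCL, FLNC, DMD, DYSF, PDCD6IP, CAPN8, CAPN9, CAPN11, CAPN14, CAPNS2 and ADGB were named after their values were seen. The members, lists and tests were chosen with earlier results of these data known. Gene symbols are those of the file. RefSeq's table of assembly UrsArc2.0, which matched 9 of 10 members, gave only transcript numbers and neighbours, and none of its coordinates were used.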

Additional observations from a re-analysis of the deposited data

Results flagged for a closer look

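A library lay far from the other 5 of its season, by Dixon's criterion, in 4 of 56 groups of 6 libraries examined, where chance gives about 1 in 20. In the winter library of bear 1509, CAPN1 was at 4.98 log2 CPM against 5.46 to 5.73 in the other winter libraries, and CAPN10 was at −1.70 against −0.18 to 0.61. In the summer library of bear 1305, CAST was at 7.70 log2 CPM against 7.28 to 7.43. In the summer library of bear 1512, ANXA5 was at 6.67 log2 CPM against 6.99 to 7.15.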

How the results depend on the processing

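The log2 fold changes of the 10 genes kept their direction and their side of the threshold in 125 of 140 combinations of gene and alternative. The call of CAPN1 was lost in 5 (each leaving out 1 bear) and CAPN3 was called in 1, with library totals. The sign changed in 9, for CAPN15 and CAST, neither called. As a log2 fold change, CAPN15 was at −0.069 with library totals, −0.014 in limma voom, and −0.073 to 0.179 with 1 bear left out, below 0 without bear 1305, 1316 or 1512. CAST was at −0.068 with library totals, −0.0026 without the filter, and −0.062 to 0.048 with 1 bear left out, below 0 without bear 1317 or 1511. The number of members lower in winter was 1 to 2 with 1 bear left out and 1 with an adjusted p below 0.01 and the limits on the fold change. Of the substrates and partners, 5 to 7 were lower with 1 bear left out and 4 with the stricter limits. Of the membrane repair genes, 2 were higher in DESeq2, 2 with RLE and 2 with filterByExpr, the second being PDCD6IP (adjusted p = 0.0127, 0.0494 and 0.0405, and 0.0545 in the test used above). In the replicate block by bear, edgeR called 1 member higher and 2 lower and no call of a member changed (CAPN1 −0.361, adjusted p = 0.045). DMD was called by that fit. Without pairing, the changes of the ratios of CAST to CAPN1 (0.371) and CAST to CAPN3 (0.25) passed an unadjusted 0.05. With 1 bear left out, the change of CAPNS1 to CAPN1 was 0.327 to 0.53 and its exact p 0.0625, the smallest that 5 bears allow. Depth limits CAPN10, CAPN15 and the rarer family members, and labels do not give lanes.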

Other observations

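CAPN8, CAPN11 and ADGB, members of the calpain family with too few reads to be tested, had 25, 22 and 7 reads over the 12 libraries. CAPN11, known from testis, had 18 of its 22 reads in summer, and CAPN8 had 16 of its 25 in winter. ADGB, or androglobin, had 7 of its 7 reads in winter.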
